A study of Drosophila melanogaster with 6 samples.

Results

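Whole Drosophila melanogaster embryos at stage 16 were profiled on 1-colour arrays to ask which transcripts differ from wild type when the transcription factor gene grainy head (grh) is mutated or overexpressed. The 4 arrays of the altered genotypes were set against the 2 wild type arrays, and the genes described are those that both altered genotypes moved the same way. The altered genotypes were embryos labelled grh mutant (allele grhB37, 2 arrays) and embryos with grh overexpression under 69B, a GAL4 driver line (69B>grh, 2 arrays). The wild type embryos were of strain w1118 (2 arrays). There was no group with 69B alone, and genetic backgrounds are not stated, so grh, the driver, the strain and the embryo collection cannot be told apart as sources of a difference. Nothing in the labels shows that replicates came from separate collections, and the p-values therefore cover only array-to-array spread, which may be technical. Whole embryos were used, in which fewer cells of a type and less RNA per cell cannot be told apart.

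Grh is a conserved regulator of epidermal differentiation. In the fly embryo it binds genes of cuticle assembly, tanning, cell junctions and wound repair, and it can act as an activator or a repressor. Loss and gain of such a factor are often read as opposite perturbations, whereas the genes below lay on the same side of wild type in both.

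A row is a named gene, represented by its probe set with the highest mean, or a probe set without a single gene name. Of 17104 rows, 8632 had a log2 signal of at least 4 on at least 2 of the 6 arrays and were tested, 7644 of them named genes. The members are the 4280 rows in which both altered group means lay on one side of wild type, 1702 above it (19.7% of those tested) and 2578 below it (29.9%). The other 4352 rows had altered means on opposite sides of wild type or level with it. The side of wild type chose the members, and both differences use the same 2 wild type arrays, so the shared direction is a description. At the edge of the intensity filter, the second highest array read 4.002 for Lime and CG13690, just inside it, and 3.999 for esc and 3.992 for CG12655, just outside. At the edge of the shared-side rule lay CG8492 and GluRIA, whose smaller difference from wild type was 2.81e-06 and 3.44e-05 log2 units. Cyp313a5 and CG31205 fell outside it because they stood at the array floor both in embryos labelled grh mutant and in wild type.

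The grh transcript itself was a member. Its log2 signal was 9.05 and 9.02 in embryos labelled grh mutant and 12.27 and 12.38 in grh overexpression, against 7.36 and 7.45 in wild type. It was 3.09-fold higher in embryos labelled grh mutant and 30.2-fold higher in grh overexpression (limma adjusted p = 1.59e-10 and 1.21e-14), and the groups did not overlap. With the altered arrays as a single group, so that the gap between them counted as spread, it did not pass (adjusted p = 0.213). The second grh probe set was under 4 in all groups, at 3.53 ± 0.02, 2.46 ± 0.10 and 3.25 ± 0.05 (mean ± SD, n = 2 each) in the same order. The labels do not say what the allele does to the transcript, so the higher signal does not check the mutant label, and each direction given for those arrays rests on that label.

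Replicates lay close together. The median absolute difference between the arrays of a pair was 0.059 log2 units in embryos labelled grh mutant, 0.0662 in grh overexpression and 0.0697 in wild type, against medians of 0.488 and 0.461 between the altered groups and wild type. Array medians were 3.10 and 3.08 for arrays labelled grh mutant, 3.16 and 3.14 for grh overexpression, and 3.002 and 2.993 for wild type. The mean of 18 hybridisation control probe sets was 7.96 ± 0.14, 8.55 ± 0.20 and 8.79 ± 0.09 (SD, n = 2 each) in the same order, with all 4 altered arrays below both wild type arrays. For Act5C, the 3′ control probe set exceeded the 5′ one by 2.20 ± 0.07, 2.74 ± 0.03 and 2.74 ± 0.06. The part of the control probe sets in the results was not tested. Each array was also centred on the median of its tested rows, which is not the array median given above. This kept 934 of the 1058 and 1670 of the 1736 rows called in both below.

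A limma model with 3 genotype means tested the average of the altered groups against wild type over all rows. It called 3165 rows higher (36.7%) and 3615 lower (41.9%) at an adjusted p under 0.05. Of these, 1609 (18.6% of those tested) had both altered means above wild type and 2424 (28.1%) had both below. A stricter count required each altered genotype to differ from wild type on its own, in the same direction. It held 1058 rows higher (12.3%) and 1736 lower (20.1%), which are called "higher in both" and "lower in both" from here on, and "rose in both" and "fell in both" carry the same meaning. A further 2832 rows (32.8%) were called in both genotypes with opposite signs. All 4 altered arrays were above both wild type arrays in 1331 rows (15.4%) and below both in 2154 (25%).

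Most shared changes were small. The smaller of the 2 changes had a median of 0.41 log2 units among rows higher in both and 0.39 among those lower in both, and it was under 0.5 in 60.4% and 66.1% of them. It reached 2-fold in 115 rows higher (1.33%) and 102 lower (1.18%), of which 93 and 93 were named genes. Among the rows higher in both, wild type was under 4 on both arrays in 92 with both altered genotypes measured, and in 55 more 1 altered genotype was under 4 as well; a row that passed the filter this way had to be higher in the measured genotype. Both altered groups were under 4 on all arrays, so that the fall was fixed by the filter, in 42 of the rows lower in both.

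The altered genotypes were also set against each other, a contrast without the wild type arrays. Grh overexpression differed from embryos labelled grh mutant in 7479 of all rows (86.6%). The same contrast was called in 845 of the 1058 rows higher in both, with the larger change in grh overexpression in 413 and in embryos labelled grh mutant in 432. It was called in 1200 of the 1736 rows lower in both, with 618 larger in grh overexpression and 582 larger in embryos labelled grh mutant. The altered group means lay within 0.25 log2 units of each other in 322 and 832 rows. When the 4 altered arrays were fitted as a single group, so that the difference between genotypes counted as spread, 164 rows were higher (1.9%) and 301 lower (3.49%) than wild type. All of these were among the rows higher or lower in both, and 64 and 79 of them changed at least 2-fold in each genotype. For a single gene, permuting 4 arrays against 2 exactly has a lowest two-sided p of 0.133, so that test was not run.

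**Figure D1:**
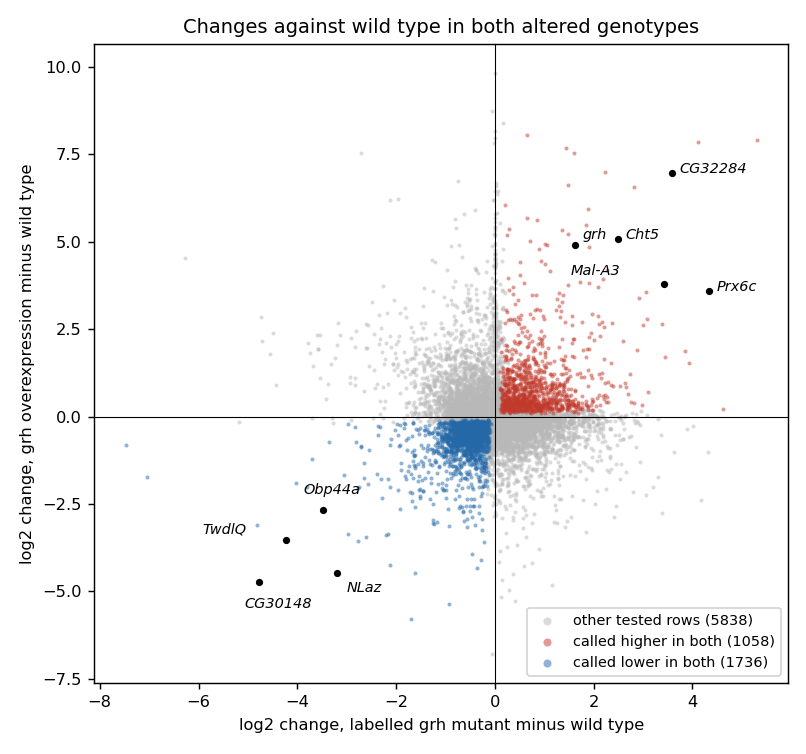
Each point is a tested row; the x axis is the log2 change in embryos labelled grh mutant and the y axis that in grh overexpression, both against the same wild type arrays. The 1058 rows called higher in both (red) lie at the upper right and the 1736 called lower in both (blue) at the lower left, and named points mark genes described in the text.

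The genes with the largest shared increase included several for enzymes and secreted proteins. The peroxiredoxin gene Prx6c, of a family that reduces peroxides, read 12.68 and 12.75 in embryos labelled grh mutant and 11.96 and 11.95 in grh overexpression, against 8.21 and 8.53 in wild type. It was thus 20.3-fold and 12.0-fold higher (limma adjusted p = 3.12e-12 and 3.45e-12). Every altered array was more than 3 log2 units above wild type, and the change was larger in embryos labelled grh mutant (difference -0.76 log2 units, 95% interval -0.93 to -0.59).

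The maltase gene Mal-A3, which encodes a sugar-splitting enzyme of the gut, read 10.31 and 10.29 in embryos labelled grh mutant and 10.67 and 10.65 in grh overexpression, against 6.91 and 6.82 in wild type. It was 10.8-fold and 13.9-fold higher. The cytochrome P450 gene Cyp4e2, of a family of oxidative enzymes, read 7.75 and 7.76 and then 8.25 and 8.18 in the same order, against 4.78 and 4.89 in wild type, and was 7.56-fold and 10.4-fold higher. Its neighbour on the chromosome, Cyp4ad1, was under 4 in wild type and at least 3.09-fold and 3.45-fold higher. The mucin gene Muc18B was 4.51-fold and 6.49-fold higher.

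The chitinase gene Cht5, whose enzyme degrades chitin of the old cuticle at moulting, read 7.48 and 7.58 in embryos labelled grh mutant and 10.09 and 10.10 in grh overexpression, against 5.09 and 4.97 in wild type. It was 5.66-fold and 33.6-fold higher, so both genotypes were clear of wild type but far from each other (difference 2.57 log2 units, 95% interval 2.43 to 2.71). It did not pass when the altered arrays formed a single group (adjusted p = 0.0945). CG32284, whose wild type arrays were under 4, was at least 3.94-fold and 41.1-fold higher. Of the genes known by number only, CG16926 was 8.37-fold and 11.8-fold higher, CG10911 8.41-fold and 6.95-fold, CG5756 4.61-fold and 5.88-fold, and CG5493 6.02-fold and 4.49-fold.

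The rule for the 15 largest shared increases also took CG4783, CG4757, CG9701, CG5397 and the lysozyme gene LysS, each under 4 in wild type. Their bounds ran from at least 1.67-fold for LysS in embryos labelled grh mutant to at least 12.6-fold for CG5397 in grh overexpression. For these 5 and for CG32284, passing the filter with a dim wild type fixed the direction. Of the 15 genes, 11 passed with the altered arrays as a single group, and CG32284, Cht5, CG9701 and CG5397 did not. The chromosomal neighbours CG42329 and CG5397 both had a fitted rise of at least 2-fold in each genotype, and so did CG14957 beside CG32284, although CG14957 was under 4 in grh overexpression as well as in wild type.

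**Figure D2:**
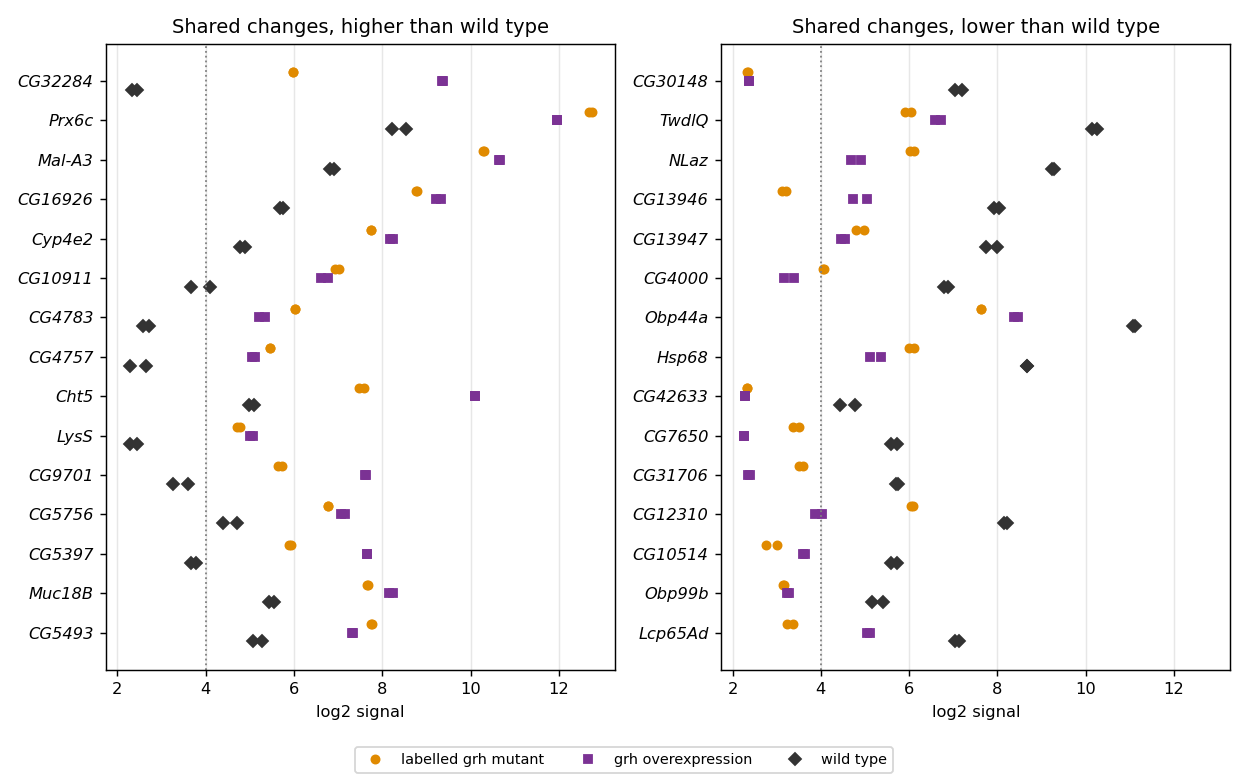
Log2 signal of every array for the 15 genes with the largest shared increase (left panel) and decrease (right panel), ranked by the smaller of the 2 changes; circles are embryos labelled grh mutant, squares grh overexpression and diamonds wild type, with 2 points each. The dotted line marks the value of 4 used in the filter, and the rule required that altered and wild type arrays not overlap.

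CG30148 had the largest fitted decrease, although its altered values lie under 4. It read 2.33 and 2.34 in embryos labelled grh mutant and 2.38 and 2.38 in grh overexpression, near the array floor, against 7.20 and 7.04 in wild type. It was at least 8.68-fold lower in each, and its fall was fixed by the filter. The Tweedle gene TwdlQ, which encodes a cuticle protein, read 6.03 and 5.91 in embryos labelled grh mutant and 6.73 and 6.59 in grh overexpression, against 10.26 and 10.14 in wild type. It was measured in all groups and was 18.7-fold and 11.6-fold lower (limma adjusted p = 2.20e-12 and 1.68e-12).

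The lipocalin gene NLaz, which encodes a secreted lipid carrier, read 6.11 and 6.01 in embryos labelled grh mutant and 4.92 and 4.68 in grh overexpression, against 9.29 and 9.23 in wild type, a 9.17-fold and 22.03-fold fall. The odorant-binding protein gene Obp44a read 7.62 and 7.62 and then 8.46 and 8.39, against 11.11 and 11.07 in wild type, and was 11.1-fold and 6.35-fold lower. A second gene of that family, Obp99b, was under 4 in both altered groups and at least 2.43-fold lower in each. The heat shock gene Hsp68 read 6.12 and 5.99 in embryos labelled grh mutant and 5.10 and 5.37 in grh overexpression, against 8.67 and 8.67 in wild type, and was 6.12-fold and 10.8-fold lower. Hsp68 has close relatives in the Hsp70 family, and shared signal from them was not tested.

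The chromosomal neighbours CG13946 and CG13947 fell together. CG13947 averaged 4.88 ± 0.13 in embryos labelled grh mutant and 4.497 ± 0.07 in grh overexpression, against 7.87 ± 0.18 in wild type (SD, n = 2 each), on a probe set of a type that can match several transcripts. CG13946 was at least 15.8-fold lower in embryos labelled grh mutant, where it was under 4, and 8.57-fold lower in grh overexpression. CG12506, next to CG13946, was under 4 in both altered groups and at least 1.30-fold lower in each. The rest of the 15 were CG4000, CG12310 and the larval cuticle gene Lcp65Ad, each above 4 on some altered arrays, and CG42633, CG7650, CG31706 and CG10514, under 4 on all altered arrays. Of the 15 genes, 13 passed with the altered arrays as a single group, and Lcp65Ad and CG12310 did not.

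A subset of genes moved by a like amount in both genotypes. Among genes whose altered means lay within 0.25 log2 units, CG11345 read 7.38 and 7.28 in embryos labelled grh mutant and 7.39 and 7.30 in grh overexpression, against 5.40 and 5.43 in wild type. The difference between the altered genotypes was 0.01 log2 units with a 95% interval of -0.14 to 0.16, beside an increase of 3.77-fold and 3.81-fold. CG14302 was 3.62-fold and 3.85-fold higher. The trypsin gene alphaTry was 3.59-fold and 3.23-fold higher, although trypsin genes have near-identical copies whose signal the array may not separate. The others chosen by the rule were Cyp4ad1, CG2187, Fbxl4, CG33095 and CG9095, of which Cyp4ad1, CG2187 and Fbxl4 were under 4 in wild type. The small difference between the altered genotypes was itself called for CG2187, CG33095 and CG9095 (limma adjusted p = 0.0454, 0.024 and 0.00088).

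On the lower side, Dtd read 4.34 and 4.20 in embryos labelled grh mutant and 4.27 and 4.28 in grh overexpression, against 6.05 and 6.08 in wild type. The difference between the altered genotypes was 0.01 log2 units with an interval of -0.17 to 0.18. The cuticle protein genes Cpr67Fa1 (3.87-fold and 4.27-fold lower) and Acp65Aa (3.23-fold and 3.11-fold lower) behaved alike to within 0.14 and 0.05 log2 units. For Cpr67Fa1 that difference was itself called (adjusted p = 0.0169). CG30148, CG42633, Obp99b, Cpr65Au and CG30288 completed this group, and all 5 were under 4 on every altered array.

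Genes were then grouped by function in 33 lists. Over all tested rows, 32.8% were called in both genotypes with opposite signs. Against the background of 12.3% higher and 20.1% lower in both, the lists with the largest share lower in both were those of the mitochondrion. Mitochondrial ribosomal proteins build the ribosome that translates the mitochondrial genome. Of 69 tested genes, 49 fell in both (71.0%), none rose in both, 7 were called in opposite directions and 13 did not pass in both. The median log2 change was -0.51 in embryos labelled grh mutant and -0.59 in grh overexpression, against medians of -0.07 and -0.08 over all tested rows. The mean log2 level of the list was 8.30 and 8.26 in embryos labelled grh mutant and 8.09 and 8.04 in grh overexpression, against 8.73 and 8.64 in wild type.

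The mitochondrial ribosome genes fell by modest amounts. The largest smaller change was that of mRpL27, which read 7.57 and 7.57 in embryos labelled grh mutant and 7.79 and 7.78 in grh overexpression, against 8.71 and 8.59 in wild type (2.11-fold and 1.82-fold lower). The gene mRpL10 was 1.79-fold and 2.19-fold lower, mRpS25 1.93-fold and 1.65-fold, and mRpL46 1.75-fold and 1.67-fold. Among the 7 called in opposite directions were mRpS9 and mRpL50, which were higher in embryos labelled grh mutant by 0.74 and 0.66 log2 units and had log2 changes of -0.39 and -0.52 in grh overexpression. With the altered arrays as a single group 19 of the 69 genes passed as lower, against 3.49% of all rows. The count was 50 after quantile normalization and 50 after centring each array on the median of its tested rows.

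Genes of the respiratory chain and ATP synthase, which make ATP in the mitochondrion, had 26 of 45 lower in both (57.8%) and none higher, with medians of -0.27 and -0.42. A further 14 were called in opposite directions. The complex I gene ND-75 read 9.40 and 9.43 in embryos labelled grh mutant and 9.36 and 9.30 in grh overexpression, against 10.19 and 10.06 in wild type (1.64-fold and 1.73-fold lower). ND-B14.5A was 1.90-fold and 1.61-fold lower, ND-15 1.73-fold and 1.59-fold, and ND-B14.5B 1.63-fold and 1.55-fold. In grh overexpression the fitted change of every tested gene of this list was below 0, whereas in embryos labelled grh mutant COX7A was higher by 0.92 log2 units and ATPsynCF6 by 0.66.

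Cytosolic ribosomal proteins, by contrast, had 2 of 34 higher (5.88%) and 3 lower (8.82%) in both, with medians of -0.07 and 0.02. Many of these genes lay near the top of the array range. RpL23 reached 13.89 and RpS7 13.49, where the highest value on any array was 14.1. Whether signal so near the top understates a change was not tested. RpL27 and RpL37-1 rose in both, by 0.64 and 0.49 log2 units for RpL27. The germline-biased paralogue RpS5b was 2.26-fold and 1.82-fold lower, and RpL24-like was 1.68-fold and 1.18-fold lower. The list was taken by symbol and also holds RpL7-like and RpLP0-like, both called in opposite directions. These genes and RpL24-like may not encode proteins of the cytosolic ribosome. Of 10 glycolysis genes, 5 fell in both and none rose, with Pgk 1.29-fold and 2.11-fold lower, beside Ald1, Eno and Tpi with log2 changes between -0.51 and -0.27. A second probe set of Ald1 did not follow, at 10.69 and 10.36 in the altered groups against 10.35 in wild type. Of 20 genes of the vacuolar proton pump, which acidifies organelles, 8 fell in both (40.0%) and none rose, with Vha14-1 and Vha36-1 among the 8. Another 8 were called in opposite directions, beside 32.8% of all rows. The difference between lists was not tested.

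**Figure D3:**
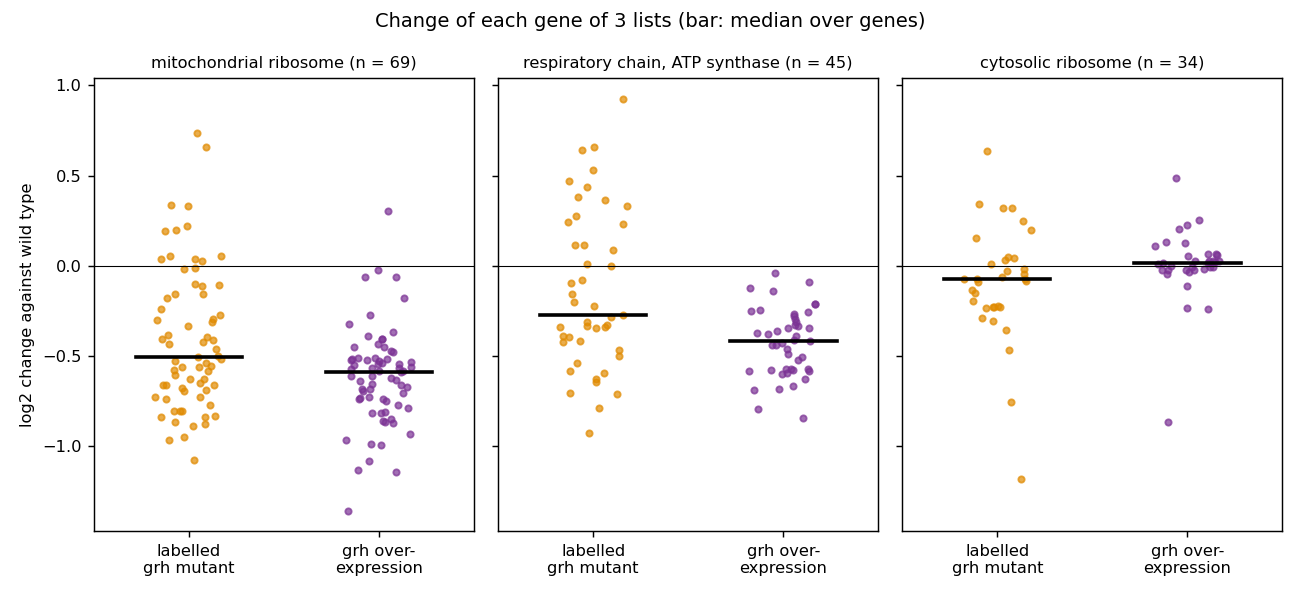
Log2 change against wild type of each tested gene (points) of 3 lists, in embryos labelled grh mutant and in grh overexpression, with the median over genes as a bar. The medians of the 69 mitochondrial ribosome genes were -0.51 and -0.59, of the 45 respiratory chain genes -0.27 and -0.42, and of the 34 cytosolic ribosome genes -0.07 and 0.02.

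Of 15 tested innate immunity genes 8 rose in both (53.3%), 2 of them with a direction fixed by the filter, none fell in both, 4 were called in opposite directions and 3 did not pass in both. The list covers the Toll and Imd pathways, which carry the response to microbes through NF-kB factors. The receptor genes Tl and PGRP-LE, the antimicrobial peptide gene Mtk and PGRP-SB1 were called in opposite directions. The peptide genes AttD, CecB, Def and DptB did not pass the filter, and neither did imd and Dif. The Toll ligand gene spz read 7.23 and 7.21 in embryos labelled grh mutant and 7.20 and 7.24 in grh overexpression, against 6.08 and 6.04 in wild type, and was 2.24-fold and 2.23-fold higher. The NF-kB gene of the Imd pathway, Rel, read 7.31 and 7.27 and then 7.26 and 7.23, against 6.42 and 6.27 in wild type. It was 1.92-fold and 1.86-fold higher, and neither spz nor Rel was called different between the altered genotypes (adjusted p = 0.971 and 0.525, with 95% intervals of -0.14 to 0.13 and -0.19 to 0.10 log2 units).

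Genes that dampen these pathways were mixed, since PGRP-LF and PGRP-SC2 did not pass in both. The gene cact, for the inhibitor that holds the Toll pathway's NF-kB factors in the cytoplasm, was 1.77-fold and 1.68-fold higher, and dl, for one of those factors, 1.38-fold and 1.38-fold. The Imd inhibitor gene pirk, under 4 in wild type, was at least 2.16-fold and 1.67-fold higher, and PGRP-LB, for an amidase that degrades the peptidoglycan trigger, was 1.75-fold and 2.11-fold higher. The antimicrobial peptide gene Drs, a Toll target, read 4.70 and 4.502 in embryos labelled grh mutant and 6.74 and 6.66 in grh overexpression, against 3.42 and 3.03 in wild type, and was at least 1.52-fold and 6.50-fold higher. The serpin gene nec completed the 8, of which pirk and Drs were the 2 fixed by a wild type under 4. For the peptide gene Mtk the rise in grh overexpression was at least 2.54-fold, with the other groups under 4. Hemocyte markers had 2 of 9 higher (22.2%) and 3 lower (33.3%) in both, beside 12.3% and 20.1% of all rows. Fat body markers had 0 of 6 higher and 1 lower (16.7%). Summed over all 12 hemocyte genes on the array, the linear signal was 2024 and 2133 in embryos labelled grh mutant and 1186 and 1234 in grh overexpression, against 2060 and 2013 in wild type. Over the 8 fat body genes it was 6814 and 7476 and then 5601 and 5600, against 7279 and 7212 in wild type. The part of these cell types in the immune result was not tested.

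Digestive genes of the midgut went both ways, with 10 of 25 higher in both (40.0%) and 6 lower (24.0%, beside 20.1% of all rows). The filter fixed the direction of 4 of the 10 and 1 of the 6. The maltase family was split. Mal-A1, Mal-A3, Mal-A6 and Mal-A8 were higher in both, Mal-A2 (1.59-fold and 1.34-fold) and Mal-B2 were lower in both, and Mal-A4 and Mal-A5 were called in opposite directions. Mal-A1 read 6.29 and 6.29 in embryos labelled grh mutant and 8.24 and 8.14 in grh overexpression, against 4.43 and 4.32 in wild type (3.76-fold and 14.04-fold higher). Mal-A6, Mal-A8 and LysS were under 4 in wild type, and Mal-B2 in both altered groups. The mean log2 level of all 38 genes of the list on the array was 5.30 and 5.26 in embryos labelled grh mutant, 5.20 and 5.18 in grh overexpression, and 4.88 and 4.82 in wild type, and 12 of them were under 4 on all 6 arrays.

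The Osiris family, active in cells that secrete cuticle, had 7 of 15 higher in both (46.7%) and none lower, with a median of 0.12 in embryos labelled grh mutant and 2.12 in grh overexpression. Osi7 was 2.56-fold and 40.2-fold higher and Osi14 1.45-fold and 5.82-fold. Osi6 and Osi9 rose in both as well, and none of the 4 passed with the altered arrays as a single group. Of 11 genes for zona pellucida domain proteins of the apical matrix, tyn (at least 2.83-fold and 8.78-fold higher), neo and dy rose in both and none fell. All 3 were under 4 in wild type, and dy also in embryos labelled grh mutant. The neo call in both was lost after quantile normalization, without a filter and without grh mutant replicate 1 or wild type replicate 2. The dy call was lost without a filter and without grh mutant replicate 2 or wild type replicate 1. Of 7 fatty acid synthesis genes 2 rose in both (28.6%, beside 12.3% of all rows) and none fell. They were FASN1, for fatty acid synthase, and ACC, for the enzyme before it. A further 4 (AcCoAS, FASN3, bond and wat) were called in opposite directions. The list median was 0.50 log2 units in embryos labelled grh mutant and 0.01 in grh overexpression. FASN1 read 8.53 and 8.45 in embryos labelled grh mutant and 8.78 and 8.78 in grh overexpression, against 7.18 and 7.10 in wild type.

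Cuticle proteins were more often lower than higher in both, as were all tested rows. Of 80 tested genes, 23 fell in both (28.7%, beside 20.1% of all rows), 6 rose in both (7.5%) and 25 were called in opposite directions. The list median was 0.02 log2 units in embryos labelled grh mutant and -0.68 in grh overexpression. Summed over the 104 genes on the array, the linear signal was 163330 and 161890 in embryos labelled grh mutant. It was 121939 and 119715 in grh overexpression, against 154624 and 149244 in wild type. Among those named above were TwdlQ, Lcp65Ad and Cpr67Fa1, while the fall of Cpr65Au, under 4 in both altered groups, was at least 1.26-fold. The filter fixed 2 of the 6 rises and 2 of the 23 falls. Cpr67Fa1 and its neighbour Cpr67Fa2 both fell at least 2-fold, as did the neighbours Acp65Aa and Lcp65Aa. These are gene copies whose signal the array may not separate.

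Chitin metabolism had 7 of 30 genes higher (23.3%) and 4 lower (13.3%) in both, beside 12.3% and 20.1% of all rows. The largest class, 14 genes, was called in opposite directions, beside 32.8% of all rows. Besides Cht5, the chitinase-like gene Idgf3 was 2.67-fold and 2.60-fold higher and the chitin deacetylase gene Cda5 2.63-fold and 1.5-fold, while the chitin-binding gene obst-E was 3.21-fold and 2.02-fold lower. Of 19 tyrosine and tanning genes, e and Pu rose in both (10.5%), t and yellow-h fell in both (10.5%), and 11 were called in opposite directions. The rises were small in embryos labelled grh mutant: e was 1.15-fold and 6.44-fold higher and Pu 1.17-fold and 4.14-fold. Neither passed with the altered arrays as a single group (limma adjusted p = 0.489 and 0.450), and the Pu call in both was lost without a filter.

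Ecdysone-related genes had 3 of 15 higher and 2 lower in both. ImpE1 was 4.31-fold and 6.28-fold higher on its brightest probe set, whose wild type arrays read 3.51 and 4.06. Another ImpE1 probe set went the other way in embryos labelled grh mutant, at 3.39 there and 4.47 in grh overexpression, against 4.18 in wild type. ImpE2 was 3.04-fold and 185-fold higher, and ImpL2, for a secreted insulin-binding protein, 1.95-fold and 4.05-fold. The steroid synthesis gene spok fell in both and was under 4 in both altered groups.

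The cytochrome P450 list, taken as symbols of Cyp and a number, had 11 of 51 higher (21.6%) and 7 lower (13.7%) in both. The filter fixed 3 of the 11. The list also took Cyp1 and Cyp40, which are cyclophilin and not P450 genes, and Cyp40 was among the 11. A further 17 of the 51 were called in opposite directions, near the 32.8% of all rows. Cyp4e2, Cyp4ad1 and Cyp6a20 (3.40-fold and 6.56-fold) were among the higher, and Cyp6d2 was 8.34-fold and 3.17-fold lower. Glutathione and glucuronosyl transferases had 13 of 52 higher and 5 lower, of which the filter fixed 2 and 1. Ugt35E2 was at least 2.32-fold higher in embryos labelled grh mutant, with the other groups under 4, while Ugt35D1 fell by 1.45 and 2.13 log2 units and GstD10 by 1.02 and 1.12. GstE4 also fell, to a level under 4. Among 10 antioxidant genes, Prx6c rose in both and Prx6a, Sod2 and Cat fell in both, with log2 changes between -0.85 and -0.17.

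Heat shock genes had 3 of 6 lower and none higher in both, while 2, Hsp26 and stv, were called in opposite directions. Summed over the 6 genes, the linear signal was 2485 and 2480 in embryos labelled grh mutant. It was 8416 and 7984 in grh overexpression, against 4862 and 4803 in wild type. Beside Hsp68, the small heat shock gene Hsp27 was 2.83-fold and 2.42-fold lower, and the co-chaperone gene DnaJ-1 1.80-fold and 2.32-fold lower. All 3 passed with the altered arrays as a single group.

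Of 13 adherens junction and apical polarity genes, 6 rose in both (46.2%) and 3 fell (23.1%), beside 12.3% and 20.1% of all rows. The apical determinant gene crb was 2.02-fold and 1.37-fold higher and the junction genes pyd and cno rose, while baz fell by 0.58 and 0.42 log2 units. Another pyd probe set averaged 6.94 in embryos labelled grh mutant and 4.12 in grh overexpression, against 4.66 in wild type, and the pyd call in both was lost when its probe sets were averaged. Of 26 septate junction genes, 2 rose (7.69%) and 6 fell (23.1%) in both, near the 12.3% and 20.1% of all rows. The gene yrt was 1.99-fold and 1.77-fold higher, and cold, Ssk and pasi1 had log2 changes between -0.69 and -0.41. Tracheal genes had 1 of 9 lower in both, rib, and none higher. Basement membrane genes had 2 of 11 lower, Pxn (2.53-fold and 2.36-fold) and SPARC, and none higher; the 18.2% lower is also near that of all rows. Of 10 wound and JNK pathway genes egr rose in both, hep and Shark fell in both, and 3 were called in opposite directions. The shares of this list higher and lower in both were near the 12.3% and 20.1% of all rows. The hep call was lost when its probe sets were averaged (pooled adjusted p = 0.159).

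Most muscle markers moved in opposite directions in the altered genotypes, and markers of other tissues had few shared calls. Of 14 muscle genes, 12 were called with opposite signs, beside 32.8% of all rows. Mlp84B and Mlp60A fell in both (14.3%), Mlp84B by 0.64 and 0.64 log2 units. The mean log2 level of the muscle list was 11.80 and 11.84 in embryos labelled grh mutant, 10.44 and 10.42 in grh overexpression, and 11.36 and 11.35 in wild type. Of 11 neuron genes 1 rose (futsch) and 1 fell (VGlut) in both. Of 6 glia genes 2 fell in both (33.3%, beside 20.1% of all rows), alrm, which was 1.75-fold and 2.36-fold lower, and wrapper. Among hemocyte genes, drpr rose and NimC1, PPO1 and PPO2 fell in both. Hml was called higher in both, but it was under 4 in grh overexpression and in wild type, and the call was lost without a filter and without grh overexpression replicate 1 or wild type replicate 2. The salivary gland list had 1 higher and 2 lower of 4, with PH4alphaSG2 and PH4alphaSG1 on opposite sides.

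Of 14 cell cycle genes none was higher or lower in both and 8 were called with opposite signs, beside 32.8% of all rows. Among the 8 were CycB at -3.59 and 1.93 log2 units and CycB3 at -3.20 and 2.06. The 3 tested homeotic genes had no shared call either, with Antp at 0.29 and -1.05 and Scr at 0.16 and -0.70. Germline and maternal transcripts had 3 of 10 higher in both (spn-E, stau and tud) and 1 lower (gcl), and 2 higher after either other scaling. The tud call was lost under both scalings, without a filter and without any 1 of the wild type and grh overexpression arrays, and spn-E was under 4 in embryos labelled grh mutant and in wild type. Proteasome genes had 5 of 26 higher and 5 lower, with Prosbeta2, Prosbeta3 and Prosbeta6 higher and Rpn6 lower, shares near the background on the lower side.

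**Figure D4:**
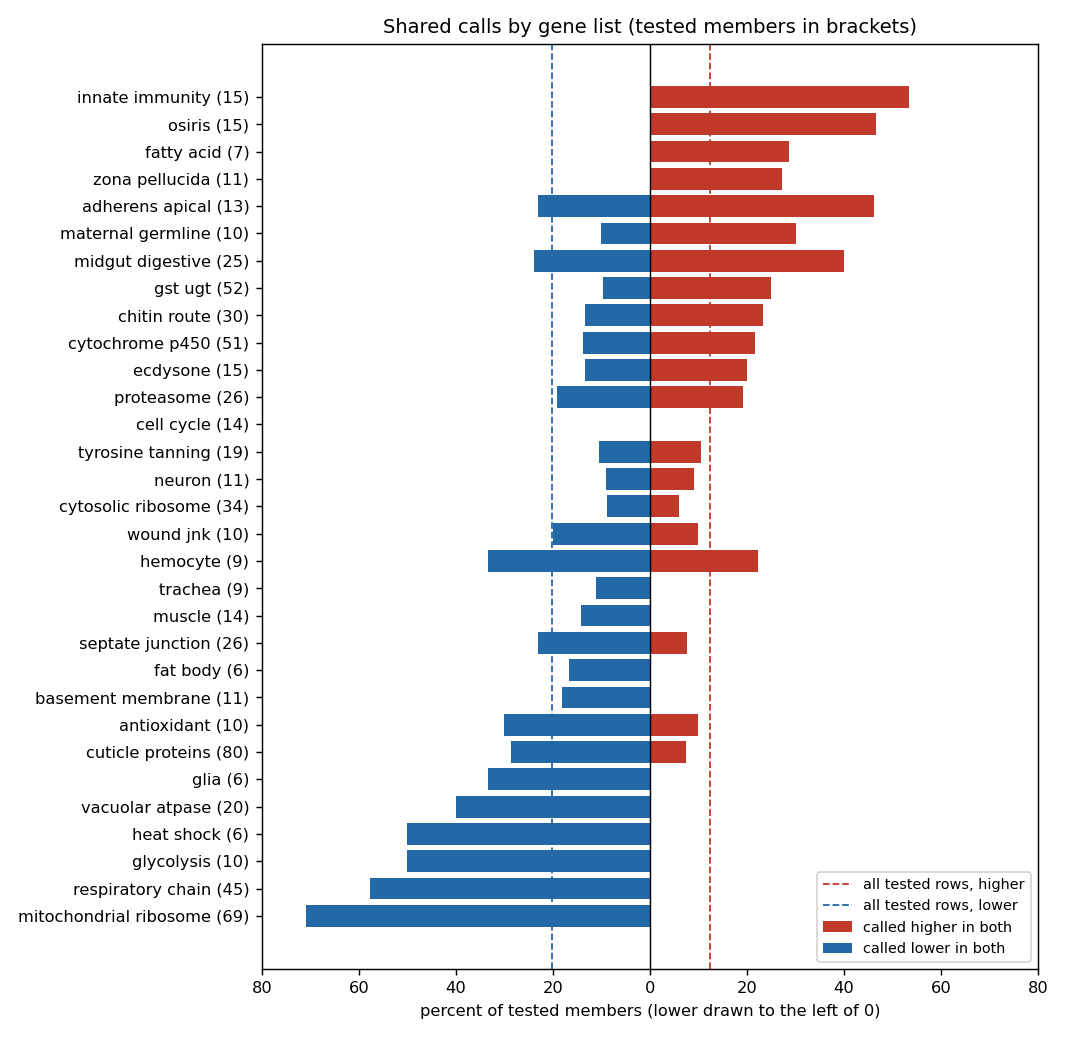
Percent of the tested members of each list called higher in both altered genotypes (red, to the right) and lower in both (blue, to the left), for lists of at least 5 tested genes; dashed lines mark 12.3% and 20.1%, the shares over all tested rows. Innate immunity (53.3% higher, with 2 of 8 genes fixed by the filter) and the mitochondrial ribosome (71.0% lower) stand at the ends.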

How the data were processed

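The authors deposited log2 signals of 18952 probe sets on each of 6 arrays; the scale was read from the values. The submitters' processing notes name GCRMA and MAS5 without a role or order, and no genome build is given in the sources read. The deposited log2 values were used without further normalization. Array numbers, not depth, limit the precision.

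Gene names come from GEO's platform table; its gene identifiers were used to bring symbols up to the RefSeq release. Of the probe sets 13647 had 1 symbol (13544 updated), 402 several, 4720 none, and 183 were controls. Names were taken only from probe sets with 1 symbol.

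A 3-group model was fitted with limma 3.58.1 in R 4.3.3 (lmFit, eBayes with trend, 3 residual and 7.93 prior degrees of freedom). P-values are two-sided, with Benjamini-Hochberg adjustment over 8632 rows, and calls are at an adjusted p under 0.05. The fit was tested on simulated data. Where neither array of a genotype reached 4, folds against it are bounds taken at 4 and written "at least".

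The members and the 33 lists were chosen with earlier results of these data known. Named genes were set by a rule. It took grh; the 15 higher and 15 lower genes with the largest smaller change among genes called in both and not overlapping; the 8 on each side with the largest pooled change within 0.25 log2; and the 2 to 4 leading members of each list. The other genes named were chosen after their values were seen. Promoter and protein sequences were not used here. Alternatives were other filters, scalings, variance settings, probe set rules, a 2-group model, a replicate block and leaving out each array.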

Additional observations from a re-analysis of the deposited data

How the results depend on the processing

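Treating the 4 altered arrays as a single group lowered the pooled counts to 164 higher and 301 lower, and the same 164 and 301 rows had both altered means on one side of wild type. That model counts the difference between the altered genotypes as spread. No other filter, scaling, variance or probe set setting moved a count by more than 1.5 times. Of the 1058 and 1736 rows called higher and lower in both, 936 and 1711 were kept after quantile normalization and 934 and 1670 after centring. Those scalings moved the median pooled change of all rows by -0.03 and -0.02. Over the fits that left out 1 array, rows higher in both ranged from 934 to 998 and rows lower in both from 1535 to 1715.

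The replicate numbers give a block fit with 1108 rows higher and 1864 lower in both, and it changed no pooled call of the 140 named genes. Deviations of same-numbered arrays correlated at 0.14 to 0.24 across rows, but the labels do not say that a number marks a shared batch. Of the 136 named genes called in both, 9 lost that call without a filter, 2 after quantile normalization and 1 after centring, and 2 to 5 in each fit without 1 array. With averaged probe sets 3 of 134 lost it. The filter at 6 left 110 of them, none of which lost it, and the single-group model has no such call. No named gene changed the sign of its pooled change. In the single-group model 68 of 140 named genes no longer passed.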
